A study of Mus musculus with 11 samples.

Results

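Peaks of the transcription factors IRF4 and PU.1 were described at the loci of Prdm1 and Irf4 in B cells of mice. A peak belonged to a locus when its position lay in the gene or within 50 kb of either end on the mm9 build. By this rule the 10 library lists held 104 of 162711 peaks at the loci and the 4 lists given per factor and day held 33 of 47808. Positions less than 200 bp apart in any libraries were merged into regions, which gave 41 of 70542 regions, 17 at Prdm1 and 24 at Irf4.

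In ChIP-seq an antibody pulls down the chromatin on which a factor sits, the DNA is sequenced, and a peak marks a place where the reads pile up. The ChIP samples came from splenic mature B cells of B1-8i mice, a strain of 129 background with a gene-targeted antibody against the hapten NP. They were stimulated with CD40L, the interleukins IL-2, IL-4 and IL-5 and the antigen NP-Ficoll, at 0.01 ng/mL. The groups were IRF4 at day 3 (3 libraries), after differentiation of activated cells into plasma cells, IRF4 at day 1 (3 libraries), after activation and before differentiation, and PU.1 at day 3 and at day 1 (2 libraries each). All groups thus share the targeted antibody gene and the stimulation, there is no unstimulated group, and no label states whether replicates were separate mice or cultures. The p-values below therefore reflect the variation among these libraries alone, part or all of which can be technical. IRF4 day 3 replicate 3 and PU.1 day 3 replicate 1 each have a pair of numbers in their titles, and whether these mark pooled preparations is not stated. Enrichment was computed by the authors relative to input DNA, for which 2 B cell preparations, peripheral or immature, had been pooled.

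Prdm1 encodes Blimp-1, a zinc finger repressor that B cells need to become antibody-secreting plasma cells. IRF4 is an interferon regulatory factor that activated B cells and plasma cells express, that is required for plasma cell formation, and that is known to act on Prdm1 and on its own gene. IRF4 binds DNA weakly by itself, often next to a partner: with the Ets factors PU.1 or Spi-B on an Ets-IRF composite element (EICE), with AP-1 factors on an AP-1-IRF composite element (AICE), or as a pair of IRF molecules on an interferon-stimulated response element (ISRE). PU.1, encoded by Spi1, is an Ets factor of B and myeloid cells.

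The 6 IRF4 regions that entered an IRF4 list of a day, and the PU.1 region of Irf4 with the highest median percentile over the PU.1 lists, are shown as the 200 bases around the peak position on the plus strand of mm9. Names give the distance in kb from the start site of the coding transcripts, positive in the direction of transcription. Capitals mark matches to the EICE, the ISRE or a PU.1 site (GAGGAAG), on either strand; TTTCGGTTCC and CTTCCTC are such matches on the minus strand.
Prdm1 +14.2 kb region, chr10:44164278-44164477: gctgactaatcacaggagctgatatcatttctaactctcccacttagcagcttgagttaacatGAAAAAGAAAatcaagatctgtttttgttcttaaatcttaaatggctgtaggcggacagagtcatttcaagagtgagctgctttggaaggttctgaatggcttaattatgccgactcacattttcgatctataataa
Prdm1 +24.0 kb region, chr10:44154473-44154672: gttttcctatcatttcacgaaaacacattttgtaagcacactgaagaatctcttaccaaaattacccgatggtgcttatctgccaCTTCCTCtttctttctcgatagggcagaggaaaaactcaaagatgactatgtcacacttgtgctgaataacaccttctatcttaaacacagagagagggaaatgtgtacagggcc
Irf4 -16.3 kb region, chr13:30824673-30824872: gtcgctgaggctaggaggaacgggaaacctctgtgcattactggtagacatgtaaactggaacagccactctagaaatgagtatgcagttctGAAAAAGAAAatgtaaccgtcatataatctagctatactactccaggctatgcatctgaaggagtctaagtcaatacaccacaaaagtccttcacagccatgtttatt
Irf4 -20.9 kb region, chr13:30820117-30820316: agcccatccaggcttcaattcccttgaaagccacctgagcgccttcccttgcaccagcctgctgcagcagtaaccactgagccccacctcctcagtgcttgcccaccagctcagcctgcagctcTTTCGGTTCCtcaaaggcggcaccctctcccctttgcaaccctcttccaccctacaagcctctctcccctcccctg
Irf4 -22.2 kb region, chr13:30818817-30819016: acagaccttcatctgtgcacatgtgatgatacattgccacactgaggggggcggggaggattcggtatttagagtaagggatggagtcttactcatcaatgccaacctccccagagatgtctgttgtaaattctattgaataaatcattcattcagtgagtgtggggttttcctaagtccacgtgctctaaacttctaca
Irf4 +63.8 kb region, chr13:30904849-30905048: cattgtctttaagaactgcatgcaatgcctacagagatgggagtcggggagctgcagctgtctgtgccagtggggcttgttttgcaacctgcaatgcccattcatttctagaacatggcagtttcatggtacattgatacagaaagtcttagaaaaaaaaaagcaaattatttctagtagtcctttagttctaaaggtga
Irf4 +37.1 kb region, chr13:30878057-30878256: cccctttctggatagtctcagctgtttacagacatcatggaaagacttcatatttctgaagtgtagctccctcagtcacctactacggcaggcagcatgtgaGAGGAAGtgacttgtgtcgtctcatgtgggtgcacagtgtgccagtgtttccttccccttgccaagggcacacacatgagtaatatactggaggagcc

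These sequences hold an ISRE at Prdm1 +14.2 kb and at Irf4 -16.3 kb, an EICE at Irf4 -20.9 kb and a PU.1 site at Prdm1 +24.0 kb and Irf4 +37.1 kb. The Irf4 -22.2 kb and +63.8 kb sequences hold none of the motifs searched.

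The lists differed widely in length. The IRF4 libraries held 2784, 1408 and 5595 peaks at day 3 and 825, 9326 and 8929 peaks at day 1, and the PU.1 libraries held 34410 and 34061 peaks at day 3 and 27321 and 38052 at day 1. The lowest enrichment listed was 15.0 to 16.9 in the IRF4 day 3 libraries and 20.9 to 21.9 in the IRF4 day 1 libraries, so the lists of the 2 days end at different levels, and 14.9 to 15.1 in the PU.1 libraries. The lists hold no read counts, so depth is unknown, and enrichments are given beside their percentile, the share of peaks in the same list with an equal or lower enrichment. A place with no peak in a list is a place that was not called at that list's own threshold. Fewer cells with a bound site and less binding per cell cannot be told apart in such bulk samples. The lists measure no expression, so the labelled cell type could not be checked by it; a peak of the day's list in or within 50 kb was present for 3 of 8 B cell marker genes at day 3 and 7 at day 1 for IRF4, for 3 and 3 of 8 myeloid markers, and for 0 and 2 of 8 T and NK cell markers, against 14.2% and 16.9% of all protein-coding genes. For PU.1 these counts were 8 and 8, 8 and 8, and 6 and 7, against 67.6% and 66.3% of all genes. Their part in the results below was not tested.

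Prdm1 (ENSMUSG00000038151.6) lies on the minus strand of chr10:44156983-44248307. Its coding start site, at 44178554, belongs to a transcript of 8 exons; the far end of the gene is the start of a processed transcript without coding sequence. The window of 191 kb holds no other annotated gene. IRF4 had 9 regions there, 3 of them called in at least 2 libraries, and PU.1 had 11 regions, 5 of them called in all 4 libraries.

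The Prdm1 region found in most IRF4 libraries was the +14.2 kb region in intron 5, at position 44164377, called in 3 of 3 day 3 libraries and 2 of 3 day 1 libraries. Its enrichment was 33.4, 29.6 and 43.2 in day 3 replicates 1, 2 and 3, at percentiles 75.8, 70.4 and 90.8 of those lists. In day 1 it was 28.5 in replicate 1 and 74.6 in replicate 2, at percentiles 52.6 and 96.5, and replicate 3 had no peak there. Within their own lists the day 1 peaks thus lay both below and above the range of the 3 day 3 peaks. No PU.1 library had a peak in this region, and the nearest PU.1 region was 3714 bp away. Of all IRF4 regions, 3.75% were called in 5 or more libraries.

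The strongest PU.1 region of the Prdm1 locus was the +24.0 kb region, 2.4 kb beyond the end of the gene, around position 44154565. PU.1 enrichment there was 618 and 592 at day 3 and 435 and 349 at day 1, between percentiles 97.4 and 99.1. All 4 PU.1 peaks were thus among the highest of their lists. IRF4 was called there in day 3 replicates 1 and 3, with enrichments of 21.99 and 16.4 at percentiles 42.0 and 20.2, and in no day 1 library. Both IRF4 values were in the lower part of their lists, and 16.4 is below the lowest enrichment in any day 1 list. The IRF4 and PU.1 positions were 18 bp apart (medians), and the PU.1 site in the printed sequence lay at or beside the PU.1 positions of 3 of the 4 libraries.

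The third Prdm1 region with IRF4 in more than 1 library lay at +26.3 kb, 4.7 kb beyond the gene end and 2303 bp from the +24.0 kb region. It had an enrichment of 31.9 in day 3 replicate 3 (percentile 80.0) and 80.1 in day 1 replicate 3 (percentile 97.6), and no PU.1 peak. Its 200 bases held TGATTCA, a match to the AP-1 pattern searched, TGANTCA. All other AP-1 matches in the regions of the loci were TGACTCA or TGAGTCA.

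The other 4 Prdm1 regions called in all PU.1 libraries were at +30.3, +10.5, +8.9 and -80.6 kb. At +30.3 kb, downstream of the gene, PU.1 enrichment was 95.6 and 71.0 at day 3 and 61.5 and 60.7 at day 1 (percentiles 75.4 to 82.8). At -80.6 kb, upstream of all annotated transcripts, it was 83.2 and 64.1 at day 3 and 46.7 and 43.4 at day 1 (percentiles 65.2 to 80.1). IRF4 was called at neither of these regions. In intron 4, the +10.5 kb region had PU.1 enrichments of 47.7 and 45.1 at day 3 and 43.0 and 41.2 at day 1 (percentiles 63.4 to 64.9). The +8.9 kb region had 37.7 and 23.5 at day 3 and 23.3 and 23.3 at day 1 (percentiles 33.1 to 56.3). Both intron 4 regions also had an IRF4 peak in day 3 replicate 3 alone, of 15.9 and 16.7, at percentiles 14.8 and 23.4 of that list. At +8.9 kb the IRF4 position was 11 bp from the PU.1 median, whereas at +10.5 kb it was 204 bp away. The +10.5 kb region counts as shared because its IRF4 position, 44168292, was under 200 bp from 44168096, that of PU.1 day 1 replicate 2. The IRF4 interval there lay inside the PU.1 interval of day 3 replicate 2. PU.1 was called in 3 libraries at +58.5 and +20.9 kb and in 1 library per day at -24.6 and -52.5 kb. The remaining Prdm1 regions were called in 1 library each.

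**Figure D1:**
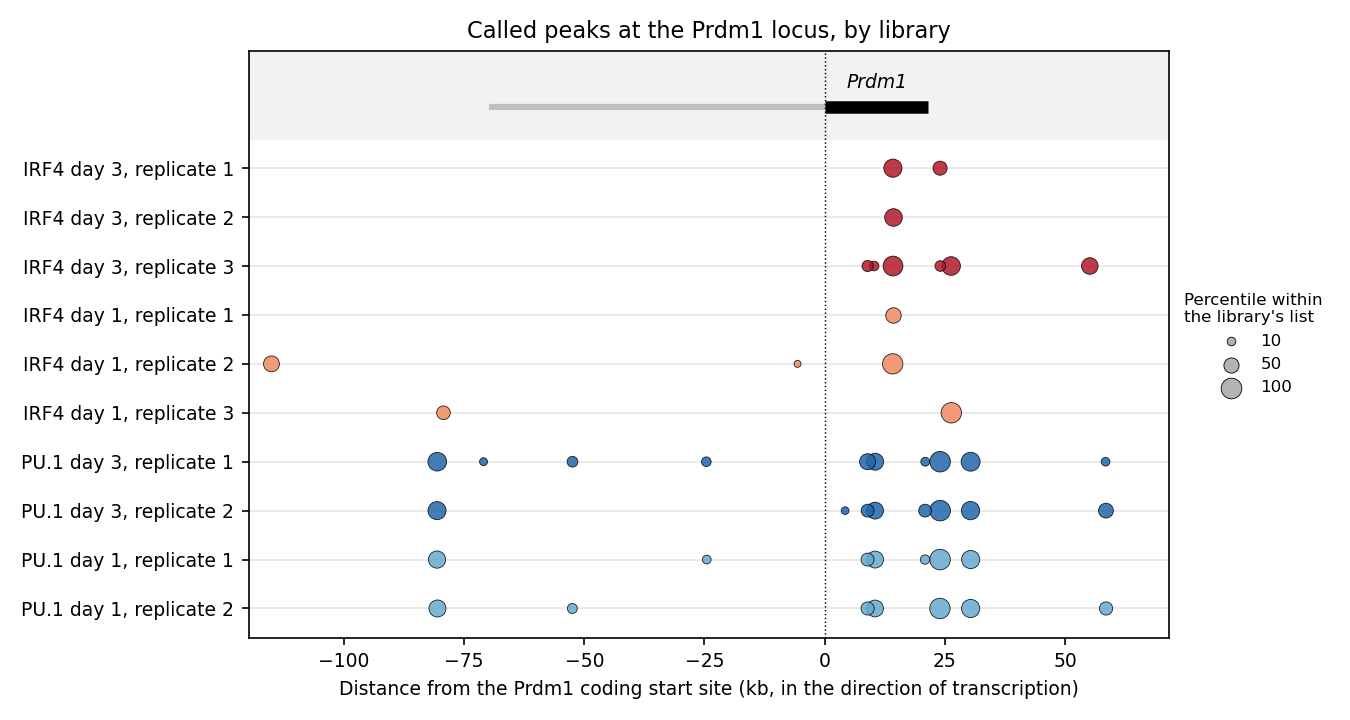
Called peaks of each library (rows) by distance from the Prdm1 coding start site in kb (horizontal axis, positive in the direction of transcription), with circle size for the percentile of the peak within its own list and the gene drawn above (black, from the coding start site to the gene end; grey, the stretch reached by the processed transcript). At +14.2 kb 5 IRF4 rows and no PU.1 row carry a circle, and at +24.0 kb all 4 PU.1 rows and 2 IRF4 day 3 rows do.

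Irf4 (ENSMUSG00000021356.3) lies on the plus strand of chr13:30841095-30858796 and has 9 exons. Its window of 118 kb also holds the ends of the neighbouring genes Dusp22 and Exoc2 and the pseudogene Gm11370. IRF4 had 10 regions at its own locus, 4 of them called in at least 2 libraries, and PU.1 had 16 regions, 6 of them called in all 4 libraries. Most IRF4 regions called more than once lay upstream of the gene, between -22.2 and -16.3 kb.

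The -16.3 kb region, between Dusp22 and Irf4 around position 30824748, was called in 3 of 3 IRF4 libraries at day 3 and 1 of 3 at day 1. Its enrichment was 47.0, 26.5 and 37.8 in day 3 replicates 1, 2 and 3, at percentiles 89.7, 60.1 and 86.9, and 48.4 in day 1 replicate 3, at percentile 89.8. The day 1 value was thus as high in its list as the highest of the day 3 values. No PU.1 library had a peak in it, and the nearest PU.1 region was 3076 bp away.

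The -20.9 kb region, around position 30820234, was the only one of the 4 with PU.1. IRF4 enrichment was 19.6 in day 3 replicate 2 and 15.0 in day 3 replicate 3, at percentiles 25.9 and 1.84, against 37.3 in day 1 replicate 3, at percentile 80.4. PU.1 enrichment was 78.6 and 76.8 at day 3 and 36.8 and 68.1 at day 1, at percentiles 78.8, 79.0, 57.7 and 78.8. The median positions of the 2 factors were 23 bp apart, and the EICE in the printed sequence, GGAACCGAAA on the minus strand of chr13:30820241-30820250, begins at the median PU.1 position of 30820241.

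The -22.2 kb region was called for IRF4 in day 1 replicates 2 and 3 and in no day 3 library. Its enrichment of 20.9 in replicate 2 was at percentile 0.740 and that of 28.1 in replicate 3 at percentile 59.7. The first of these stood at the very bottom of its list. The +63.8 kb region, between Irf4 and the end of Exoc2, was called in 2 IRF4 libraries of each day. Its median position, 30904944, was 46.1 kb beyond the end of Irf4 and much closer to the end of Exoc2, at 30905788. There the enrichment was 31.1 and 28.3 in day 3 replicates 1 and 3, at percentiles 71.6 and 74.1, against 67.2 and 52.5 in day 1 replicates 2 and 3, at percentiles 95.2 and 91.8. Neither region had a PU.1 peak, and a PU.1 region of 1 library lay 543 bp from the +63.8 kb region.

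PU.1 was called in all 4 libraries at +37.1, +17.8, +12.3, +43.3, -20.9 and -12.3 kb of Irf4. The +37.1 kb region had 331 and 162 at day 3 and 230 and 188 at day 1, at percentiles between 90.6 and 96.5, the highest value of the locus in 3 of the 4 libraries. Its position agreed within 2 bp in the 4 libraries, from 30878154 to 30878156. The +17.8 kb region, 0.1 kb beyond the end of the gene, had 211 and 205 at day 3 and 146 and 180 at day 1 (percentiles 91.3 to 93.3), and was the highest in day 3 replicate 2. In intron 8, the +12.3 kb region had 156 and 127 at day 3 and 116 and 137 at day 1 (percentiles 87.5 to 90.4). The +43.3 kb region had 108 and 68.0 at day 3 and 55.8 and 66.3 at day 1 (percentiles 72.5 to 85.2). These 4 regions inside and beyond the gene had no IRF4 peak in any library. The -12.3 kb region was weak, between percentiles 5.56 and 32.0.

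At the start site of Irf4 the called peaks lay in the lower part of their lists. IRF4 was called there in day 3 replicate 3, with an enrichment of 18.0 at percentile 35.2, and in the same library 1.2 kb upstream with 25.8 at percentile 68.0. PU.1 was called at the start site in both day 3 libraries, with 15.7 and 16.6 at percentiles 4.55 and 9.11, and in no day 1 library. It was the only PU.1 region of the 27 called in both libraries of day 3 and none of day 1, and 3.78% of all PU.1 regions had that pattern. The PU.1 positions, 30841269 and 30841052, were joined only through the IRF4 position between them, and with a merging distance of 100 bp or without IRF4 day 3 replicate 3 no region had that pattern. It was seen at 3 regions without PU.1 day 1 replicate 1 and at 2 without PU.1 day 1 replicate 2. PU.1 was called at -10.6 kb in both day 3 libraries and 1 day 1 library and at -43.9 kb, in an intron of Dusp22, in 1 library of each day. The remaining Irf4 regions were called in 1 library each.

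**Figure D2:**
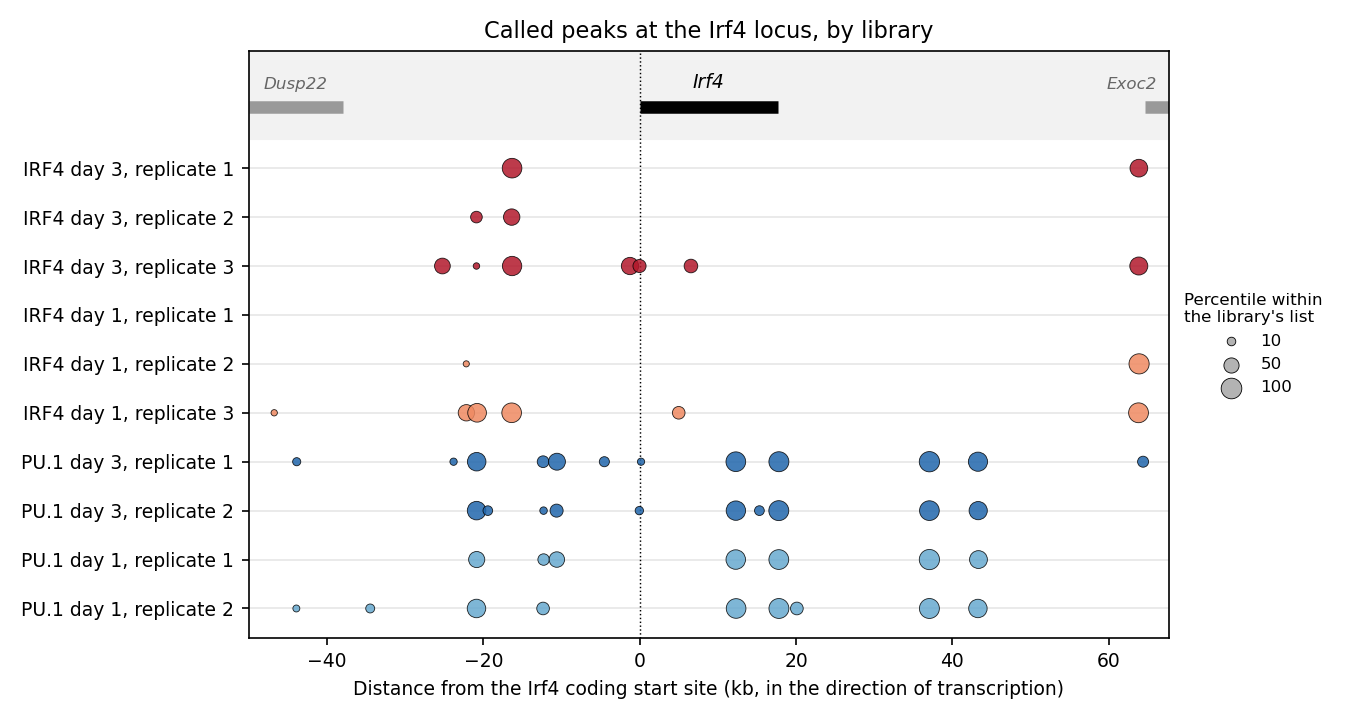
Called peaks of each library (rows) by distance from the Irf4 start site in kb (horizontal axis, positive in the direction of transcription), with circle size for the percentile of the peak within its own list and Irf4, Dusp22 and Exoc2 drawn above. The repeated IRF4 calls lie between -22.2 and -16.3 kb and at +63.8 kb, while the PU.1 calls from +12.3 to +43.3 kb have no IRF4 call in any of the 6 IRF4 rows.

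Over both loci IRF4 had 19 regions and PU.1 had 27, and 5 regions had both factors. IRF4 was called in all 6 libraries at none of them. Of the 19 IRF4 regions, 12 (63.2%) were called in 1 IRF4 library, against 79.0% of all IRF4 regions, and 7 of these 12 came from day 3 replicate 3, 3 from day 1 replicate 3 and 2 from day 1 replicate 2. Without day 3 replicate 3 the Irf4 locus kept 6 of its 10 IRF4 regions and Prdm1 kept 6 of its 9. Of the 27 PU.1 regions, 11 (40.7%) were called in all 4 libraries, against 24.7% of all PU.1 regions, and 9 (33.3%) in 1 library, against 36.8%.

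Most repeated IRF4 regions of the loci lacked PU.1. Of the 19 IRF4 regions 5 (26.3%) had a PU.1 peak, against 35.0% of all IRF4 regions. Of the 7 IRF4 regions called in at least 2 libraries 2 (28.6%) had one, against 73.1% of all such regions; these counts, of 2 in 7, were chosen after the values were seen and carry no test, and without day 3 replicate 1 or replicate 3 only 1 such region with PU.1 remained. Without day 3 replicate 3, 2 of the remaining IRF4 regions in place of 5 had a PU.1 peak. With the stronger 50% of each list, 1 of 10 IRF4 regions had a PU.1 peak, against 41.3% of all, and 0 of the 4 called in at least 2 libraries, against 65.7%. Of the 11 PU.1 regions called in all 4 libraries 4 (36.4%) had an IRF4 peak, against 26.1% of all such regions. Without IRF4 day 3 replicate 3 it was 2 of 11, against 21.6%, so the count was then near that share.

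Fisher's exact test compared the number of libraries with a peak, 6 of IRF4 against 4 of PU.1, in each of the 70542 regions, two-sided and with Benjamini-Hochberg adjustment over all of them. Of the 41 regions 7 (17.1%) were called more often for PU.1 at an adjusted p of 0.0319, the exact value reached by 4 of 4 PU.1 and 0 of 6 IRF4 libraries, against 14.9% of all regions, a share near the background. They were +30.3 and -80.6 kb at Prdm1 and -12.3, +12.3, +17.8, +37.1 and +43.3 kb at Irf4. None of the 41 was called more often for IRF4 (0.0340% of all regions were); the +14.2 kb region of Prdm1, with IRF4 in 5 of 6 and PU.1 in 0 of 4 libraries, was the 1 region of the loci past an unadjusted exact p of 0.05 in that direction (p = 0.0476, adjusted p = 0.151), against 0.133% of all regions. In the other direction 12 of the 41 were past it, against 31.3% of all regions, which is again near the background. The -16.3 and +63.8 kb regions of Irf4, with 4 of 6 and 0 of 4, each had an exact p of 0.0762 (adjusted p = 0.233). With 1 library fewer the smallest p that the test can reach is larger, also for regions called in every remaining PU.1 library and no IRF4 library. Without IRF4 day 3 replicate 1, day 3 replicate 2 or day 1 replicate 1, or without any 1 PU.1 library, no region of the genome passed Fisher's exact test (smallest adjusted p between 0.0509 and 0.0680, with 13632 to 22484 regions at an unadjusted p under 0.05), and without each of the other 3 IRF4 libraries 7 to 9 of the 41 regions passed. IRF4 libraries held fewer peaks than every PU.1 library, and the part of list length in these differences was not tested.

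**Figure D3:**
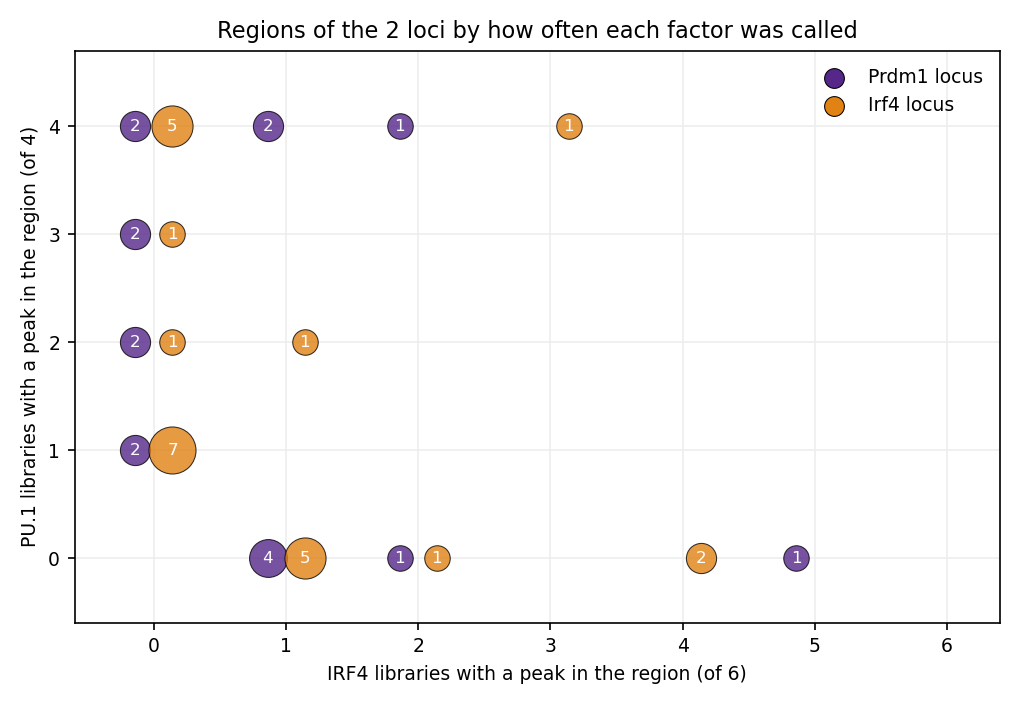
The 41 regions by the number of IRF4 libraries (horizontal axis, of 6) and PU.1 libraries (vertical axis, of 4) with a peak; the number in each circle, and its size, is how many regions of the locus have that combination. Prdm1 +14.2 kb lies at 5 IRF4 and 0 PU.1 libraries, Irf4 -16.3 and +63.8 kb at 4 and 0, and 7 regions at 0 and 4.

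The comparison of day 3 with day 1 asked how binding of the factors changes when activated B cells become plasma cells. At Prdm1 the IRF4 libraries had 2, 1 and 6 peaks at day 3 (3 ± 2.65, SD, n = 3) and 1, 3 and 2 at day 1 (2 ± 1, SD, n = 3). The difference of 1 peak did not exceed the spread of the libraries (exact permutation test, two-sided, p = 0.9, adjusted p = 0.9 over 4 tests), and it was -0.5 without day 3 replicate 3. At Irf4 they had 2, 2 and 7 peaks at day 3 (3.67 ± 2.89, SD, n = 3) and 0, 2 and 6 at day 1 (2.67 ± 3.06, SD, n = 3), a difference of 1 (exact permutation p = 0.7, adjusted p = 0.9). It was -0.667 without day 3 replicate 3 and -0.333 without day 1 replicate 1. With 3 against 3 libraries this test cannot go below 0.1. In every case the day 3 and day 1 counts of IRF4 overlapped.

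PU.1 counts within 50 kb did not overlap between days at either locus, but this depended on the settings. At Prdm1 it depended on the scaling, the window and the peaks kept, and at Irf4 on the window and the peaks kept. At Prdm1 there were 10 and 8 peaks at day 3 (9 ± 1.41, SD, n = 2) and 7 and 7 at day 1 (7 ± 0, SD, n = 2), a difference of 2. At Irf4 there were 12 and 10 at day 3 (11 ± 1.41, SD, n = 2) and 7 and 9 at day 1 (8 ± 1.41, SD, n = 2), a difference of 3. Both tests gave p = 0.3333 (exact permutation, two-sided, adjusted p = 0.667), the smallest that 2 against 2 libraries allow, so a difference could not be shown in this design. Of 18237 genes with a PU.1 peak, 11.6% were higher in every day 3 library and 3.39% lower in every one. When each PU.1 list was reduced to the same number of strongest peaks, the mean was 6.5 on both days at Prdm1 and 7 on both days at Irf4, a difference of 0. Per 1000 PU.1 peaks, Prdm1 had 0.291 and 0.235 at day 3 and 0.256 and 0.184 at day 1, which overlap (exact permutation p = 0.667), and Irf4 had 0.349 and 0.294 at day 3 and 0.256 and 0.237 at day 1, which do not. The shares of genes given above are for PU.1 peak counts. No such share was taken per 1000 PU.1 peaks, so the scaled values of Irf4 have no background. At Prdm1 the exact permutation p was 0.667 with a window of 20 kb and 1 with 100 kb, and at Irf4 it was 0.667 with 100 kb.

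**Figure D4:**
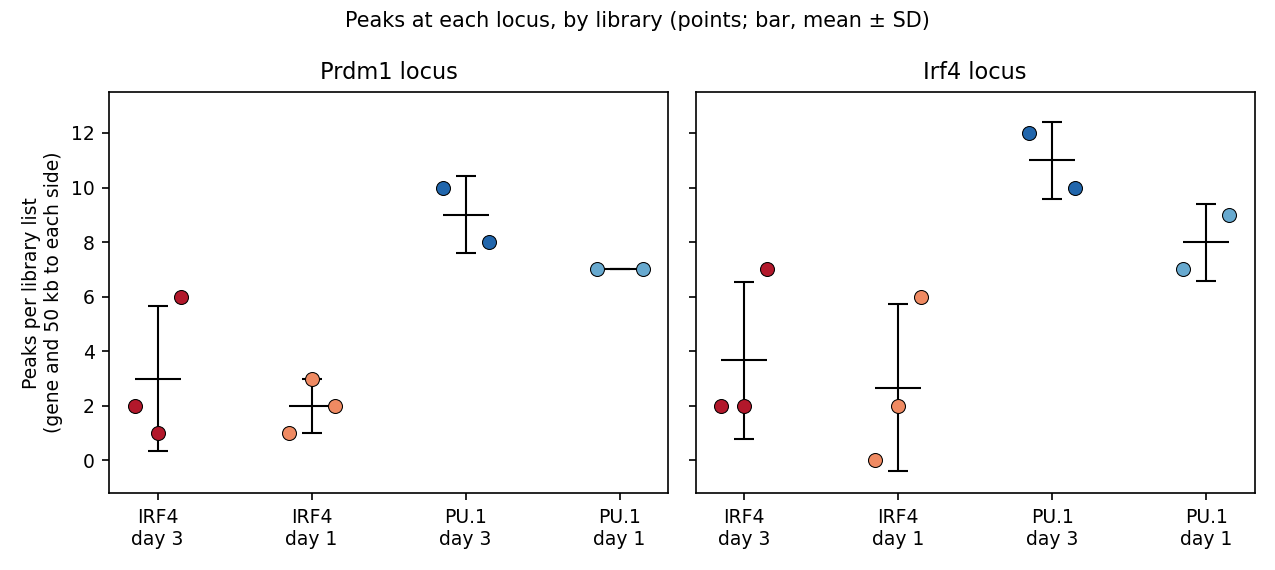
Peaks per library list at the Prdm1 and Irf4 loci for IRF4 and PU.1, with day 3 left of day 1; points are libraries, bars their means and error bars the SD (n = 3 for IRF4, n = 2 for PU.1). The IRF4 points of both days overlap at both loci, and the PU.1 points lie between 8 and 12 at day 3 and between 7 and 9 at day 1.

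Scaled to list length, the Irf4 locus took 0.718, 1.42 and 1.25 per 1000 IRF4 peaks at day 3 and 0, 0.214 and 0.672 at day 1, so the days did not overlap (means 1.13 and 0.295, exact permutation p = 0.1, two-sided, the smallest 3 against 3 allow). Of 14827 genes with an IRF4 peak, 4.11% were higher in every day 3 library and 0.216% lower in every one, and the day 1 lists end at a higher enrichment. When each IRF4 list was instead reduced to the same number of strongest peaks, Irf4 had a mean of 1.33 peaks at day 3 and 0.667 at day 1 (exact permutation p = 0.6, two-sided). Prdm1 had 0.718, 0.710 and 1.07 per 1000 at day 3 and 1.21, 0.322 and 0.224 at day 1, with overlap.

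By region, IRF4 was called on both days at 5 of the 19 regions, at day 3 alone at 8 and at day 1 alone at 6, against 14.8%, 20.2% and 65.0% of all IRF4 regions. The 8 at day 3 alone rested on replicate 3, without which 1 was left, and 4 of them had enrichments below 20.9, the lowest in any day 1 list. Those at day 1 alone numbered 3 without day 1 replicate 3. With the stronger 50% of each list there were 3 at day 3 alone and 3 at day 1 alone. A surplus of at least 2 libraries at day 3 was seen at 2 of the 19 (10.5%), Prdm1 +24.0 kb and Irf4 -16.3 kb, against 2.71% of all IRF4 regions, and such a surplus at day 1 at 1 (5.26%), Irf4 -22.2 kb, against 4.60%. The day 3 surplus was left at 0 regions without day 3 replicate 1 or replicate 3, at 1 without day 3 replicate 2 and at 3 without each day 1 library in turn, and the day 1 surplus at 0 without day 1 replicate 2 or replicate 3. No test of a single region between days was made, since an exact test of 3 against 3 libraries cannot go below 0.1. In the authors' lists per day, IRF4 had 2 peaks at Prdm1 at day 3 (+14.2 and +24.0 kb) and 1 at day 1 (+14.2 kb), and 3 peaks at Irf4 at day 3 (-20.9, -16.3 and +63.8 kb) and 2 at day 1 (-22.2 and +63.8 kb). Of 22380 protein-coding genes, 14.2% had an IRF4 peak of the day 3 list within 50 kb and 16.9% one of the day 1 list. PU.1 had 7 peaks of the day 3 list at each locus, and 5 at Prdm1 and 6 at Irf4 of the day 1 list, against 67.6% and 66.3% of genes with at least 1.

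The ISRE copies at Prdm1 +14.2 kb and Irf4 -16.3 kb were the same 10 bases, GAAAAAGAAA, on the plus strand. They are shown with 10 bases to either side to let the surroundings be compared.
Prdm1 +14.2 kb core, chr10:44164331-44164360: gagttaacatGAAAAAGAAAatcaagatct
Irf4 -16.3 kb core, chr13:30824755-30824784: atgcagttctGAAAAAGAAAatgtaaccgt
Of the 20 bases outside the core, 6 were identical. The ISRE centre lay 31 bases to the left of the median IRF4 position at Prdm1 and 22 to the right of it at Irf4. This exact core was present in 0.719% of IRF4 regions, against 0.731% of windows 2 kb to either side. In IRF4 regions of at least 2 libraries without PU.1, the class of both, it was present in 10 of 1132 (0.883%), against 0.618% of such windows. The same core also lay in Irf4 -19.4 kb, called in 1 PU.1 library alone. The match is a description of these letters and not evidence of a site.

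Of the 7 IRF4 regions called in at least 2 libraries, 2 held an ISRE (Prdm1 +14.2 and Irf4 -16.3 kb) and 1 an EICE (Irf4 -20.9 kb). A match to the AP-1 pattern, TGANTCA, lay in 1 (Prdm1 +26.3 kb, as TGATTCA) and a PU.1 site in 1 (Prdm1 +24.0 kb), and 2 held none of the motifs. No AICE (searched in both of its spacings, each containing the AP-1 pattern) was found in the 200 bases around any region of the loci. The rest of the loci was not searched. Over all 19 IRF4 regions 11 held none. How many of all IRF4 regions hold none of the motifs was not counted, so these counts have no background. The PU.1 site, held by 1 of the 7, lay in 842 of the 4202 IRF4 regions of at least 2 libraries across the genome. It lay in 7.09% of windows 2 kb to either side of them. An ISRE lay in 2 of the 19 IRF4 regions, against 6.93% of all IRF4 regions. It lay also in 4 of the 27 PU.1 regions, against 5.22% of all PU.1 regions. Those 4 were Prdm1 +20.9 and -70.9 kb and Irf4 -43.9 and -19.4 kb, none of them called for IRF4. Across the genome 23.0% of the IRF4 regions of at least 2 libraries held an EICE, against 2.01% of windows 2 kb to either side, 10.4% an ISRE, against 2.94%, 4.02% an AICE, against 0.143%, and 25.2% an AP-1 site, against 6.28%. These shares differed by PU.1: in the regions without a PU.1 peak, as 5 of the 7 are, they were 2.92% for the EICE, 11.7% for the ISRE, 9.19% for the AICE and 47.2% for AP-1, and in those with a PU.1 peak 30.4%, 9.87%, 2.12% and 17.1%. Of the 11 PU.1 regions called in all 4 libraries 7 held the PU.1 site, and of all 27 PU.1 regions 14 did; across the genome 40.2% of the PU.1 regions called in all 4 libraries held it, against 7.36% of flanking windows, and 36.3% of all PU.1 regions, against 7.30%.

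Both loci were dense in IRF4 regions for their length. IRF4 regions of at least 2 libraries numbered 1.57 per 100 kb at Prdm1 and 3.40 at Irf4, above 94.8% and 99.4% of protein-coding genes, for which the median was 0. PU.1 regions numbered 5.75 per 100 kb at Prdm1 and 13.6 at Irf4, above 69.1% and 95.8% of genes, against a median of 3.44. The genes whose peak counts over the 10 libraries were most like those of Prdm1, by Euclidean distance of log2(peaks + 1), were Ppp3cc (0.676), Mdfic (0.827) and Ell2 (0.838), and for Irf4 Slc7a5 (0.958), Zfp62 (1.03) and Prr5l (1.07). Ell2 is a transcription elongation factor that acts in antibody secretion, and Slc7a5 is an amino acid transporter of activated lymphocytes. The distance compares peak counts alone, and whether the listed genes share a function was not tested.

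Of 30 genes of the B cell and plasma cell regulatory network, 19 had an IRF4 peak of the day 3 list within 50 kb and 21 one of the day 1 list, against 14.2% and 16.9% of all genes, with a median of 1 peak per gene on either day against 0 over all genes. Peaks of both days lay at 17 of the 30, of day 3 alone at 2 and of day 1 alone at 4, against 9.51%, 4.71% and 7.43% of all genes. Ikzf3, which encodes the zinc finger factor Aiolos, and Relb, an NF-kB subunit, had one at day 3 alone. At day 1 alone it was Bcl6, the repressor of the germinal centre, Id3, an inhibitor of E proteins, Pou2af1, a coactivator of Oct factors, and Sdc1, the plasma cell surface protein syndecan-1. The list of neither day held a peak for Xbp1, the secretory regulator of plasma cells, Spi1, Irf8, Ikzf1, Tcf3, Ciita and Creb3l2. PU.1 had a peak at 30 of the 30 genes at day 3 and 29 at day 1, against 67.6% and 66.3% of all genes, with a median of 6 on either day against 2 and 1 over all genes. These counts describe distance and do not show that a peak acts on the gene. A longer gene has a larger window, and the part of gene length in these counts was not tested.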

How the data were processed

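Binding of IRF4 and PU.1 was measured by ChIP-seq in 10 libraries. Per the series' design text, the authors aligned the reads to mm9 and used QuEST to express enrichment relative to input. The aligner was not given in the sources used here, nor were the QuEST version and its thresholds. Deposited lists have 1 line per peak, with an interval, a position and the authors' maximum enrichment, a linear ratio to input per the file headers, used only to describe and rank peaks within a list. Whether positions count from 0 or 1 is not given. Peaks were called per library. The lists per factor and day are copies of library lines, and 5 and 7 repeated lines of the PU.1 day 3 and day 1 lists were counted once. Replicates are numbered as in the descriptions of the samples, and some titles number them differently, or give a pair of numbers, which may mark pooled preparations.

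Peaks were assigned to genes of GENCODE M1 within 50 kb, and positions less than 200 bp apart were merged by single linkage. Counts per library were compared with exact permutation tests, two-sided, and calls per region with Fisher's exact test (SciPy 1.17.1), with Benjamini-Hochberg adjustment and a threshold of 0.05. Motifs were searched in the mm9 reference with Python 3.11.15. Regions called in at least 2 libraries of a factor were described, with the values of all libraries for those in an IRF4 list of a day, in at least 3 IRF4 libraries or among the strongest in all 4 PU.1 libraries. The members and gene lists were chosen with earlier results of these data known. Alternatives were other window sizes, merging distances, stronger peaks, lists of equal length, leaving out each replicate and a replicate block. Those for IRF4 regions in at least 2 libraries, regions called more often for PU.1, PU.1 regions with IRF4 and regions by day were chosen after seeing the data.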

Additional observations from a re-analysis of the deposited data

How the results depend on the processing

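The day 3 minus day 1 difference in peaks per library depended on the libraries. For IRF4 at Prdm1 it was 0 with lists of equal length and -0.5 to 2 when replicates were left out 1 at a time, and for IRF4 at Irf4 it was 0.667 and -0.667 to 2.67. For PU.1 it was 1 to 3 at Prdm1 and 2 to 4 at Irf4 when replicates were left out. With lists of equal length it was 0 at both loci, and with the stronger 50% of each list 0 at Irf4. The number of regions of the genome whose calls differed between IRF4 and PU.1, 10524, was 6312 with the stronger 50% of each list and 0 to 11181 when replicates were left out. With fewer libraries the smallest p the test can reach is larger, and the other causes were not tested. Of the 7 IRF4 regions called in at least 2 libraries, 5 to 7 remained with 1 replicate left out, and 4 with the stronger 50%. The replicate block gave the same differences, with exact p of 0.75, 0.5, 0.5 and 0.5, but the samples were taken to share only a number. Deviations from the group mean over regions were correlated between same-numbered libraries of day 3 and day 1. They gave -0.267, 0.077 and -0.102 for IRF4 and -0.00297 for PU.1. With 2 PU.1 libraries per day the deviations mirror each other, so this is 1 value for both pairs. No day 3 IRF4 library correlated best with its own number. The share of peaks in common was taken of the shorter list of each pair. By it, IRF4 day 3 replicates 1 and 2 and PU.1 day 3 replicate 1 had their highest share with the same-numbered day 1 library. IRF4 day 3 replicate 3 and PU.1 day 3 replicate 2 did not. The shorter list changes between pairs, so these shares can vary with list length and cannot decide whether the numbers mark pairs. The depth is unknown, and list length limits what a missing call shows.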
